A study of Hordeum vulgare with 12 samples.

Results

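The comparison described here sets crowns of barley (Hordeum vulgare, Golden Promise cultivar) after 3 h of auxin against crowns after 1 h of auxin. It uses 6 of the 12 libraries of the series. Members are the 3 libraries labelled 3 h and the 3 labelled 1 h, taken by their labels. In this crown-root inducible system all seedlings were first kept on 50 µM NPA (N-1-naphthylphthalamic acid), which blocks polar auxin transport, and were then moved to 50 µM 1-NAA (1-naphthaleneacetic acid), a synthetic auxin. The 3 h group and the 1 h group therefore share the cultivar, the NPA before, the change of solution and the auxin, and differ in the time on auxin. Each library is the poly(A) RNA of a pool of 5 crowns, the 2 mm junction of root and stem, and the labels call the 3 of a group independent biological replicates. Libraries at 30 min and at 0 h, taken on NPA, are used for the course of each gene and for the shared estimate of spread. The comparison asks what follows the first hour of auxin: which genes rise late, and which are switched off again after 1 h. No crowns kept on NPA were sampled at 3 h, so time on auxin and time of day cannot be told apart.

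Crown roots are shoot-borne roots, which form most of a cereal's root system and start from cells at the base of the stem. In rice, auxin starts them by removing Aux/IAA repressors from auxin response factors, which then switch on LOB domain genes such as CRL1 and, with it, WUSCHEL-related homeobox genes such as WOX11. Auxin also induces the genes that end its own signal, among them the Aux/IAA repressors and the GH3 enzymes, which join auxin to amino acids.

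The 3 h libraries held between 22710691 and 25664867 reads assigned to genes and the 1 h libraries between 21190922 and 27984548. Assigned reads were 56.0% of all reads in replicate 1 of 3 h and between 72.8% and 78.4% in the other 5. On the first principal component of 2000 genes (31.2% of the variance) libraries lay by replicate number, number 1 between -48.2 and -21.2, number 2 between -14.2 and 8.86 and number 3 between 20.5 and 40.7. Replicate 1 of 3 h was the lowest. On the second (22.9%) the 3 h libraries lay between 29.9 and 50.7 and the other 9 between -26.8 and -0.175. Levels are CPM (counts per scaled library, from edgeR). They are not per length, so they are compared between times and not between genes. In these 6 libraries 3 counts equal 0.1072 to 0.1416 CPM. Summed over 86 genes of leaf or green tissue, the level was 5207, 5037 and 4492 CPM at 3 h, against 6860, 5628 and 6391 CPM at 1 h, so it was lower in every 3 h library. All 86 were above 0 in the 3 h libraries. Summed over 15 genes named after grain proteins it was 807, 405 and 279 CPM at 3 h, against 549, 504 and 370 CPM at 1 h, with overlap. The part of green tissue in the results below was not tested, and fewer cells of a type cannot be told apart from less RNA per cell in pooled crowns.

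After 3 h of auxin, 297 of 24920 genes tested stood higher than after 1 h (1.19%) and 221 stood lower (0.887%), 518 in all (2.08%), by edgeR's quasi-likelihood test at a Benjamini-Hochberg adjusted p under 0.05. The median log2 fold change was 1.61 among the genes that rose and -1.21 among those that fell, against -0.01 over all genes. Of the rises 244 were at least 1 on the log2 scale and 91 at least 2, and of the falls 144 and 40 were at least as large. When the replicate number entered the fit as a block, 819 rose (3.29%) and 873 fell (3.5%), 1692 in all (6.79%), among them all 297 and all 221. In all 518 called genes the 3 h libraries lay on 1 side of all 1 h libraries. It follows that the difference had the same sign within each of the 3 replicate numbers. Over all genes tested, 10.7% had all 3 h libraries above and 10.5% had all 3 h libraries below. Single libraries moved these counts. Leaving out 3 h replicate 2 gave 172 rises and 119 falls, and leaving out 3 h replicate 3 gave 169 and 92. Leaving out 1 h replicate 1 gave 135 and 104, and leaving out 1 h replicate 2 gave 136 and 85. No called gene changed direction in these 4 fits. Genes are named by the identifiers of the deposited tables without their shared start HORVU.MOREX.r2 and their version ending. In the authors' deposited table, which holds 672 higher and 619 lower genes in this comparison, 295 of the 297 and 220 of the 221 were also called. Below, log2 fold changes are 3 h over 1 h with their SE and adjusted p. A second adjusted p is the highest of 12 fits that each left out 1 library. It is given where at least 1 of these fits lost the call.

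**Figure D1:**
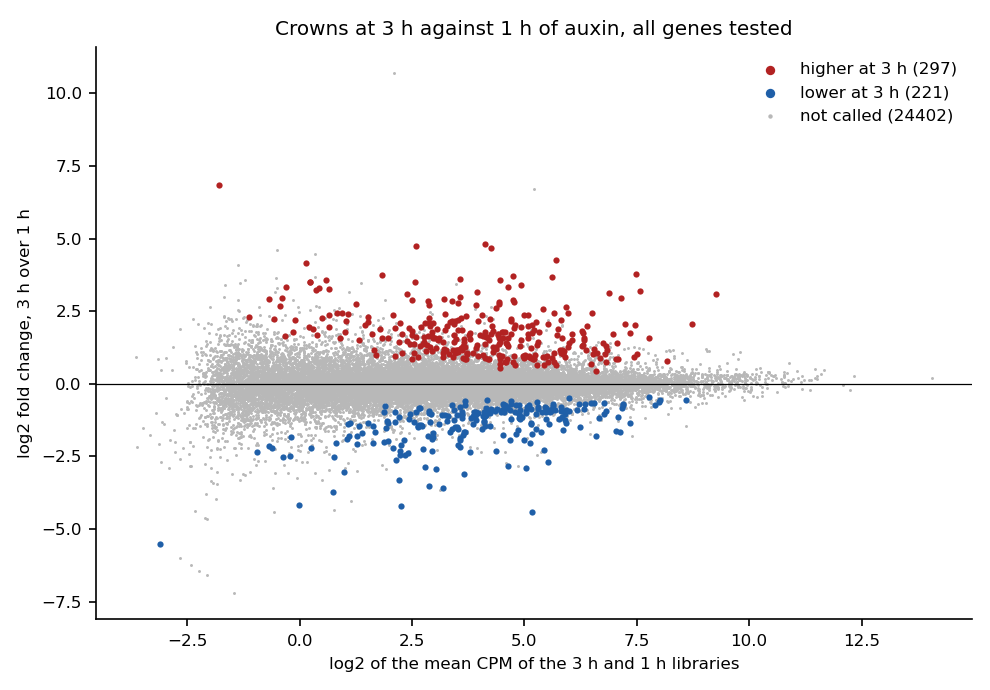
Log2 fold change (3 h over 1 h) of each gene tested against the log2 of its mean CPM over the 6 libraries of the comparison. Red points are the 297 genes that were higher and blue points the 221 that were lower by edgeR, and grey points were not called. Large changes of low-abundance genes are mostly grey.

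Among called genes with a mean of at least 1 CPM at 3 h or 1 h and a description, the 12 largest rises include genes of ethylene, gibberellin and cytokinin metabolism. First came an ACC synthase gene, 4HG0282950 (chromosome 4H, 26133041 to 26134817), similar to Arabidopsis ACS8, whose enzyme makes the precursor of ethylene. It had 33.6, 33.3 and 34.2 CPM at 3 h, against 1.81, 1.28 and 0.542 CPM at 1 h. All 3 libraries of 3 h lay close together and far above those of 1 h, a fitted rise of 28.2 times (log2 4.82 ± 0.51, adjusted p = 0.000986). The auxin canalization gene 4HG0346860 (chromosome 4H, 618562726 to 618564688), of a family that in Arabidopsis helps to place auxin carriers in forming veins, had 12.5, 10.7 and 11.5 CPM at 3 h, against 0.791, 0.293 and 0.237 CPM at 1 h. That is a fitted rise of 26.8 times (log2 4.74 ± 0.51, adjusted p = 0.00106). The gibberellin 2-oxidase gene 2HG0150970 (chromosome 2H, 572575719 to 572578068), of a family that inactivates gibberellin, had 29.8, 32.4 and 47.98 CPM at 3 h, against 0.884, 3.07 and 0.271 CPM at 1 h. Replicate 3 was the highest of the 3 h group and the lowest of the 1 h group (log2 4.69 ± 0.85, adjusted p = 0.0147, or 0.0832 without 1 h replicate 1).

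The LOG gene 4HG0339680 (chromosome 4H, 594559030 to 594563201), similar to Arabidopsis LOG4, whose enzyme releases active cytokinin, had 100.2, 74.3 and 122 CPM at 3 h, against 9.77, 3.73 and 2 CPM at 1 h. The 1 h values spread widely (log2 4.27 ± 0.53, adjusted p = 0.00194). The bHLH transcription factor gene 5HG0403920 (chromosome 5H, 472585471 to 472586211) is similar to Arabidopsis TMO5, a target of auxin response factors that acts in early vascular tissue and there activates LOG4. It had 90.96, 87.9 and 92.4 CPM at 3 h, against 9.35, 5.82 and 6.3 CPM at 1 h. Its 3 h libraries differed little from each other (log2 3.66 ± 0.27, adjusted p = 0.000118). The membrane-associated kinase regulator gene 4HG0343510 had 30.2, 45.8 and 46.3 CPM at 3 h, against 3.77, 3.37 and 3.08 CPM at 1 h (log2 3.58 ± 0.23, adjusted p = 9.52e-05). This was the smallest p of the comparison among the 24 largest changes. The other 6 of the 12 largest rises ran from 3.59 to 4.16 on the log2 scale. They include a glutathione S-transferase gene, 2HG0178450 (log2 4.16 ± 0.84, adjusted p = 0.0251, or 0.0931 without 1 h replicate 3), and a gene similar to Arabidopsis PRE6, 7HG0552630 (log2 3.74 ± 0.69, adjusted p = 0.0163, or 0.0845 without 1 h replicate 1). An auxin-responsive family gene, 7HG0584000 (log2 3.71 ± 0.26, adjusted p = 0.000112), and a bZIP gene similar to Arabidopsis BZIP42, 6HG0507030 (log2 3.63 ± 0.40, adjusted p = 0.0011), had smaller SE. The last is a tropinone reductase-like gene, 3HG0261420 (log2 3.59 ± 0.74, adjusted p = 0.0284, or 0.131 without 1 h replicate 1), beside a GH3 gene.

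Some genes for enzymes that remove free auxin rose further after 1 h. The GH3.3 gene 2HG0106420 (chromosome 2H, 121197894 to 121199873) had 825, 1173 and 1322 CPM at 3 h, against 161, 86.4 and 139 CPM at 1 h. The fitted level was 8.59 times higher at 3 h (log2 3.10 ± 0.24, adjusted p = 0.000118). A second GH3.3 gene, 3HG0242100 (chromosome 3H, 505959452 to 505963259), had 294, 329 and 372 CPM at 3 h, against 30.5, 19.98 and 22.1 CPM at 1 h (log2 3.78 ± 0.40, adjusted p = 0.000979). Both had passed at 1 h over 0 h. The means of the first were 9.46, 47.5, 129 and 1107 CPM at 0 h, 30 min, 1 h and 3 h, and those of the second were 3.69, 8.76, 24.2 and 332 CPM at 0 h, 30 min, 1 h and 3 h. Another gene, 1HG0054200, described as a putative GH3.3, was not called (log2 1.39 ± 0.49, adjusted p = 0.197, and 0.0861 with the block). In the GH3 list, of 9 members tested, 2 rose and 0 fell, with a median log2 fold change of 0.51. The dioxygenase gene 2HG0144850 is similar to Arabidopsis DAO1, an enzyme that oxidizes auxin. It had 242, 374 and 412 CPM at 3 h, against 38.4, 32.5 and 40.5 CPM at 1 h (log2 3.21 ± 0.26, adjusted p = 0.000211). On the side of synthesis no member rose: of 28 members tested, 0 rose and 1 fell (0 and 2 with the block), with a median of -0.18. The gene that fell was a flavin-containing monooxygenase gene, 3HG0238160, of a family that includes the auxin-producing YUCCA enzymes (log2 -2.53 ± 0.55, adjusted p = 0.0366, or 0.128 without 3 h replicate 2).

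**Figure D2:**
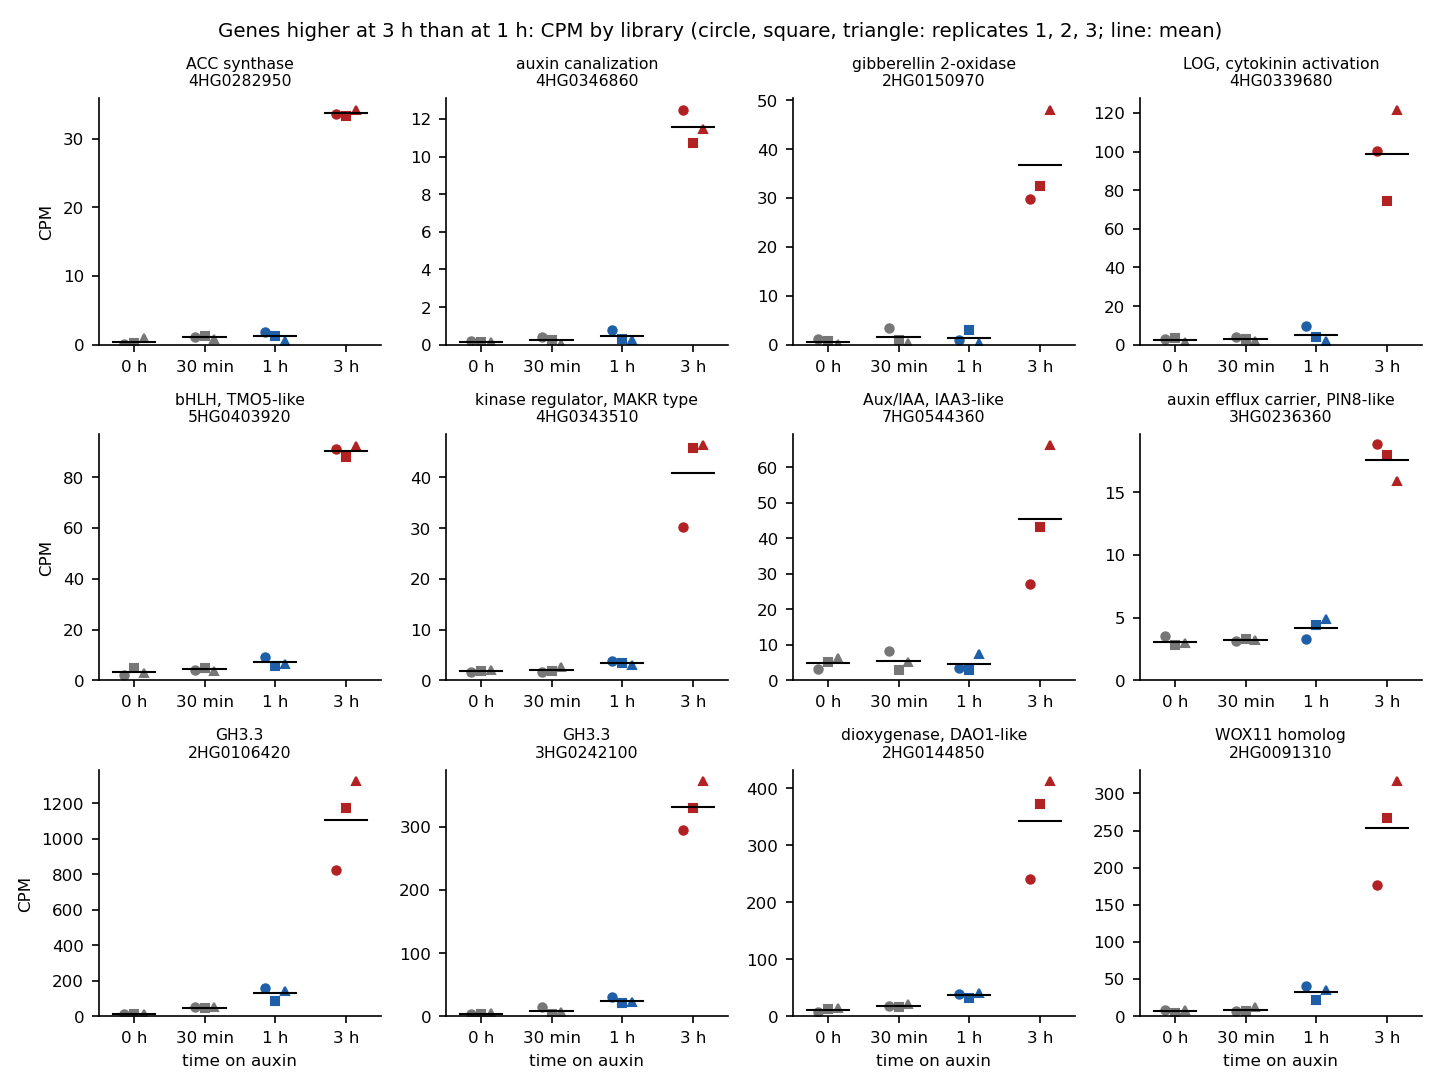
CPM (linear axis) of 12 genes that were higher at 3 h than at 1 h, in each library of the 4 times, with 3 h in red, 1 h in blue, 0 h and 30 min in grey and a line at each mean. In the upper 2 rows the level at 1 h is still low, and in the bottom row the mean at 1 h is already above that at 0 h before the larger step to 3 h.

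The Aux/IAA genes, repressors that auxin both destroys and induces, rose more often than they fell. In this list of 19 members tested, 8 rose and 1 fell (11 and 1 with the block), and the median log2 fold change was 1.05. Between 6 and 9 rose when 1 library was left out, the fewest being 6 without 3 h replicate 3. The gene 6HG0522850, similar to Arabidopsis IAA13, had 221, 173 and 188 CPM at 3 h, against 80.2, 65.4 and 75.9 CPM at 1 h (log2 1.40 ± 0.16, adjusted p = 0.00124). The gene 3HG0199050, similar to IAA17, had 126, 211 and 243 CPM at 3 h, against 70.2, 48.5 and 56.5 CPM at 1 h (log2 1.73 ± 0.23, adjusted p = 0.00317). These 2 differ in their start: the means of the IAA13-like gene were 64.1, 64.05, 73.8 and 194 CPM at 0 h, 30 min, 1 h and 3 h, and those of the IAA17-like gene 19.9, 24.2, 58.4 and 193 CPM at 0 h, 30 min, 1 h and 3 h. The gene 6HG0520360, similar to IAA4, had 179, 210.2 and 245 CPM at 3 h, against 30.7, 13.7 and 28.4 CPM at 1 h (log2 3.12 ± 0.47, adjusted p = 0.00479), and its means were 1.18, 10.6, 24.3 and 211 CPM at 0 h, 30 min, 1 h and 3 h. It too had passed at 1 h over 0 h. The gene 7HG0544360, similar to IAA3, stood at 45.5 ± 19.7 CPM at 3 h, against 4.5 ± 2.47 CPM at 1 h (SD, n = 3 each, log2 3.33 ± 0.48, adjusted p = 0.00422). Its means at 0 h and 1 h were close together, 4.93, 5.53, 4.5 and 45.5 CPM at 0 h, 30 min, 1 h and 3 h. Further rises were seen in 5HG0360110 (log2 0.79 ± 0.10, adjusted p = 0.00179) and in the second IAA17-like gene 1HG0021490 (log2 1.73 ± 0.27, adjusted p = 0.00564). The 1 gene that fell was 3HG0196550, similar to IAA18 (log2 -1.04 ± 0.23, adjusted p = 0.0428, or 0.181 without 1 h replicate 2), which like the IAA3-like gene was chosen after its values were seen.

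Other auxin response families moved less as groups. Among the SAUR genes, small auxin-induced genes linked to cell expansion, of 45 members tested, 3 rose and 1 fell (10 and 3 with the block), with a median of 0.50. Those that rose were 2HG0152760 (log2 1.98 ± 0.29, adjusted p = 0.00448), 5HG0416900 (log2 1.92 ± 0.27, adjusted p = 0.00351) and 5HG0417310 (log2 2.67 ± 0.51, adjusted p = 0.0277, or 0.138 without 1 h replicate 2). The gene 7HG0610870 fell (log2 -1.92 ± 0.35, adjusted p = 0.0159, or 0.0777 without 3 h replicate 3). Among the auxin response factors, the transcription factors that read the signal, of 29 members tested, 3 rose and 0 fell (5 and 0 with the block), with a median of 0.072. The rises numbered 1 without 3 h replicate 3. The gene 6HG0463500, similar to ARF19, had 58.7, 50.9 and 57.1 CPM at 3 h, against 22.7, 20.6 and 22.7 CPM at 1 h (log2 1.34 ± 0.15, adjusted p = 0.0011). In Arabidopsis ARF19, with its relative ARF7, starts lateral roots through LOB domain genes. The genes 3HG0261550, similar to ARF2 (log2 1.02 ± 0.19, adjusted p = 0.0171, or 0.0907 without 1 h replicate 2), and 2HG0150790, similar to ARF16 (log2 1.21 ± 0.24, adjusted p = 0.0263, or 0.111 without 1 h replicate 2), were the other two that rose.

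Auxin transport genes were called in 1 direction. In that list of 20 members tested, 4 rose and 0 fell (8 and 0 with the block), with a median of 0.36. The rises numbered 2 without 1 h replicate 2. All 4 were auxin efflux carrier genes, of a family that includes carriers which set the direction of auxin flow. A gene similar to PIN8, 3HG0236360, had 18.8, 17.9 and 15.9 CPM at 3 h, against 3.3, 4.39 and 4.87 CPM at 1 h (log2 2.06 ± 0.18, adjusted p = 0.000355). The PIN3-like gene 3HG0228010 had 2.85, 2.35 and 4.5 CPM at 3 h, against 0.698, 0.439 and 0.643 CPM at 1 h (log2 2.44 ± 0.40, adjusted p = 0.00878, or 0.0594 without 1 h replicate 2). Of the 9 auxin canalization genes tested, a family picked by its words after values were seen, 4 rose and 0 fell (5 and 0 with the block), with a median of 1.06. Beside 4HG0346860 these included its near neighbour 4HG0346890 (log2 2.85 ± 0.38, adjusted p = 0.00281) and 1HG0046110 (log2 2.03 ± 0.19, adjusted p = 0.000618). A second membrane-associated kinase regulator gene, 1HG0059070, also rose (log2 1.88 ± 0.23, adjusted p = 0.0016).

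Among homologs of known crown-root genes, 1 of WOX11 and 1 of CRL1 rose, and their second homologs and those of CRL4 and CRL5 did not pass. The WUSCHEL-related gene 2HG0091310 (chromosome 2H, 32750309 to 32752599), whose first listed rice homolog is WOX11, a homeobox gene that promotes emergence and growth of crown roots, had 176, 266 and 316 CPM at 3 h, against 40.3, 21.7 and 34.8 CPM at 1 h. The fitted level was 7.84 times higher at 3 h (log2 2.97 ± 0.33, adjusted p = 0.0011), after a first step at 1 h over 0 h (log2 2.30 ± 0.33, adjusted p = 0.0292). Its means were 6.55, 8.76, 32.3 and 253 CPM at 0 h, 30 min, 1 h and 3 h. A second WOX11 homolog, 4HG0315980, had 6.44, 5.56 and 6.15 CPM at 3 h, against 2.84, 1.35 and 3.42 CPM at 1 h, which did not pass without the block (log2 1.25 ± 0.33, adjusted p = 0.0827) and did with it (adjusted p = 0.011). Likewise 3HG0251360, another WUSCHEL-related gene, stood at log2 2.10 ± 0.49, adjusted p = 0.0554, and at an adjusted p of 0.00236 with the block. In the list, of 8 members tested, 1 rose and 0 fell (3 and 0 with the block), with a median of 0.27.

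The LOB domain gene 4HG0339920 (chromosome 4H, 595307482 to 595308336), whose first listed rice homolog is CRL1, needed in rice to start crown roots, had 145, 117 and 99.01 CPM at 3 h, against 48.1, 36.9 and 37.2 CPM at 1 h (log2 1.56 ± 0.25, adjusted p = 0.00684). Its means of 14.9, 22.8, 40.7 and 120.3 CPM at 0 h, 30 min, 1 h and 3 h went upward at each step. The LOB domain gene next to it, 4HG0339910, had 1.52, 2.96 and 2.85 CPM at 3 h, against 0.279, 0.293 and 0.169 CPM at 1 h (log2 3.29 ± 0.50, adjusted p = 0.00567). How the counting treated reads shared by such neighbours is not stated. A gene similar to Arabidopsis LBD16, 6HG0523370, had 3.86, 4.74 and 4.7 CPM at 3 h, against 0.93, 1.28 and 1.02 CPM at 1 h (log2 2.04 ± 0.36, adjusted p = 0.0129, or 0.0707 without 1 h replicate 1). In the LOB domain list of 22 members tested, 4 rose and 0 fell (7 and 2 with the block), with a median of 0.074. The rises numbered 2 without 3 h replicate 2. The 4th was 5HG0385220 (log2 1.69 ± 0.39, adjusted p = 0.0493, or 0.156 without 1 h replicate 1). A second CRL1 homolog, 4HG0276060, did not pass (log2 0.87 ± 0.53, adjusted p = 0.49). The CRL4 homolog 4HG0278080, of a family of guanine nucleotide exchange factors that recycle auxin carriers, had 30.5, 41.2 and 41.3 CPM at 3 h, against 42.4, 44.1 and 39.6 CPM at 1 h (log2 -0.16 ± 0.16, adjusted p = 0.712). Second homologs of CRL4 were at log2 0.38 ± 0.13, adjusted p = 0.193 for 3HG0194920, -0.10 ± 0.36, adjusted p = 0.929 for 3HG0236690 and -0.29 ± 0.17, adjusted p = 0.476 for 5HG0419730. Of CRL5, an AP2-type transcription factor gene, only second homologs were tested, 2HG0127160 (log2 -0.30 ± 0.48, adjusted p = 0.826) and 5HG0426580 (log2 0.72 ± 0.44, adjusted p = 0.487). In the whole AP2-like and PLETHORA list of 21 members tested, 0 were called in either direction, also with the block.

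Further transcription factor genes rose while relatives fell. In the bHLH list of 135 members tested, 6 rose and 6 fell (10 and 16 with the block), with a median of -0.20. Beside the TMO5-like gene, 5HG0401530, similar to the Arabidopsis TMO5 relative T5L1, had 57.97, 60.5 and 60.6 CPM at 3 h, against 33.7, 25.00 and 32.7 CPM at 1 h (log2 0.97 ± 0.14, adjusted p = 0.00401). Further bHLH genes that rose were 7HG0591480 (log2 1.74 ± 0.20, adjusted p = 0.00124) and 6HG0472110 (log2 1.84 ± 0.26, adjusted p = 0.00379). A gene similar to PRE5, 4HG0336070, rose as well (log2 2.81 ± 0.33, adjusted p = 0.00129). PRE proteins bind other bHLH proteins and promote cell elongation in Arabidopsis. In the bZIP list of 40 members tested, 2 rose and 0 fell, both similar to BZIP42. The first, 6HG0507030, had 20.98, 16.4 and 28.1 CPM at 3 h, against 2.23, 1.87 and 1.22 CPM at 1 h. The second, 7HG0557340, had 18.7, 29.00 and 29.00 CPM at 3 h, against 9.91, 5.6 and 8.73 CPM at 1 h (log2 1.66 ± 0.38, adjusted p = 0.0455, or 0.209 without 1 h replicate 2). In the NAC list of 87 members tested, 4 rose and 2 fell (8 and 5 with the block). Among those that rose were 3HG0247070 (log2 2.19 ± 0.36, adjusted p = 0.00862) and 7HG0527690 (log2 1.08 ± 0.18, adjusted p = 0.00944, or 0.0564 without 1 h replicate 1), similar to Arabidopsis VND4, a gene of vessel formation. A fall was seen in 7HG0568530 (log2 -1.54 ± 0.22, adjusted p = 0.00379). In the GRAS list of 38 members tested, 1 rose and 0 fell (3 and 2 with the block). The 1 that rose was the SCARECROW-type gene 2HG0139280 (log2 1.80 ± 0.28, adjusted p = 0.00696). The share called without the block was 2.63%, against 2.08% of all genes tested.

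Changes in both directions were also seen in the WRKY, MYB and ethylene response factor families. In the WRKY list of 85 members tested, 3 rose and 3 fell (3 and 7 with the block), with a median of -0.14. The genes 6HG0497280 (log2 2.16 ± 0.31, adjusted p = 0.00415) and 3HG0252360 (log2 1.91 ± 0.23, adjusted p = 0.0016) rose, and a WRKY40-like pair fell, described below. In the MYB list of 154 members tested, 1 rose and 11 fell (3 and 23 with the block), with a median of -0.32. The falls numbered 5 without 3 h replicate 2. The 1 that rose was 5HG0426210, similar to the Arabidopsis gene KANADI4 (log2 1.34 ± 0.18, adjusted p = 0.00308), and 1HG0060080 fell (log2 -1.10 ± 0.14, adjusted p = 0.00271). In the ethylene response factor list of 75 members tested, 2 rose and 4 fell (4 and 5 with the block), with a median of 0.069. The falls included 3HG0249690, with 0.782, 1.99 and 0.701 CPM at 3 h, against 10.1, 21.3 and 8.94 CPM at 1 h (log2 -3.53 ± 0.47, adjusted p = 0.00276), 2HG0157200 (log2 -2.30 ± 0.43, adjusted p = 0.0164, or 0.079 without 3 h replicate 2) and 2HG0170410 (log2 -1.01 ± 0.13, adjusted p = 0.00221).

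Cytokinin genes were called in both directions. In the list of 48 members tested, 4 rose and 2 fell (6 and 10 with the block), with a median of -0.092. All 4 that rose were LOG genes, which catalyse the last step to active cytokinin, out of 11 LOG genes tested. After 4HG0339680 came 1HG0033760, with 64.3, 102 and 152 CPM at 3 h, against 23.3, 23.4 and 12.8 CPM at 1 h (log2 2.43 ± 0.35, adjusted p = 0.00427). The gene 3HG0235580 had 66.4, 78.6 and 109 CPM at 3 h, against 25.4, 21.3 and 22.7 CPM at 1 h (log2 1.88 ± 0.19, adjusted p = 0.000979). The other LOG gene, 3HG0222470, reached 10.2 ± 3.81 CPM at 3 h, against 3.31 ± 0.968 CPM at 1 h (SD, n = 3 each, log2 1.63 ± 0.37, adjusted p = 0.0445, or 0.209 without 1 h replicate 2). Outside the list of 48, the gene 5HG0434790, similar to Arabidopsis IPT5, an enzyme of cytokinin synthesis, had 0.966, 3.08 and 1.57 CPM at 3 h, against 12.05, 17.7 and 13.9 CPM at 1 h. The fall passed (log2 -2.95 ± 0.40, adjusted p = 0.00321). The response regulator gene 1HG0053020 fell (log2 -1.08 ± 0.16, adjusted p = 0.00466), and so did 7HG0620270, a cytokinin oxidase gene similar to CKX7, whose enzyme breaks cytokinin down (log2 -1.05 ± 0.17, adjusted p = 0.00696). Of 27 response regulator genes, 0 rose and 1 fell, against 1 and 8 with the block.

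Gibberellin and ethylene genes changed in both directions within one family. In the gibberellin oxidase list of 12 members tested, 3 rose and 1 fell (4 and 2 with the block), with a median of 0.74, and all 4 called genes encode inactivating 2-oxidases. Beside 2HG0150970, 1HG0019640 had 34.3, 35.9 and 35.2 CPM at 3 h, against 16.2, 13.9 and 10.3 CPM at 1 h (log2 1.38 ± 0.20, adjusted p = 0.00422). The gene 1HG0071660 rose as well (log2 2.16 ± 0.48, adjusted p = 0.041, or 0.141 without 3 h replicate 2). The gene 3HG0240680 went the other way, with 7.55, 6.93 and 6.39 CPM at 3 h, against 27.3, 50.5 and 24.8 CPM at 1 h (log2 -2.30 ± 0.35, adjusted p = 0.00545). In the ethylene synthesis list of 12 members tested, 1 rose and 4 fell, with a median of -0.44. The rise was that of the ACC synthase gene 4HG0282950. A second ACC synthase gene, 2HG0154390, similar to ACS6, fell, with 0.874, 1.66 and 1.86 CPM at 3 h, against 5.4, 5.2 and 6.91 CPM at 1 h (log2 -1.99 ± 0.42, adjusted p = 0.0307, or 0.0926 without 3 h replicate 2). ACC oxidase, the last enzyme of the pathway, was represented by 3 falls among 8 genes tested. The first was 6HG0513090, with 20.3, 19.1 and 19.2 CPM at 3 h, against 65.8, 41.5 and 47.6 CPM at 1 h (log2 -1.40 ± 0.19, adjusted p = 0.00317). The others were its neighbour 6HG0513110 (log2 -1.15 ± 0.19, adjusted p = 0.0106, or 0.0553 without 3 h replicate 2), and 1HG0017380 (log2 -0.98 ± 0.20, adjusted p = 0.0255, or 0.116 without 1 h replicate 1).

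Calls were also made among brassinosteroid, abscisic acid and jasmonate genes. A gene similar to CYP734A1, which inactivates brassinosteroids, rose (7HG0592200, log2 1.87 ± 0.34, adjusted p = 0.0146, or 0.0657 without 1 h replicate 1). One similar to CYP85A2, which makes the active hormone, fell (2HG0080140, log2 -1.04 ± 0.21, adjusted p = 0.0238, or 0.0959 without 3 h replicate 2). In the cytochrome P450 list that holds both, of 228 members tested, 3 rose and 3 fell (6 and 21 with the block). That is 2.63% called, against 2.08% of all genes tested. In the abscisic acid list of 78 members tested, 3 rose and 3 fell (5 and 7 with the block). Type 2C phosphatases of this list went both ways. The gene 5HG0392330, similar to HAI3, a negative regulator of abscisic acid signalling, had 7.68, 13.99 and 12.05 CPM at 3 h, against 2.65, 2.71 and 2.57 CPM at 1 h (log2 2.09 ± 0.23, adjusted p = 0.00115). The neighbours 1HG0048580, with 2.62, 3.33 and 1.9 CPM at 3 h, against 19.96, 31.4 and 16.2 CPM at 1 h (log2 -3.10 ± 0.38, adjusted p = 0.00162), and 1HG0048610 (log2 -2.29 ± 0.36, adjusted p = 0.00616) fell. In the jasmonate list of 70 members tested, 1 rose and 1 fell (3 and 8 with the block), with a median of -0.37. The share called was 2.86%, again near the 2.08% of all genes. The rise was in 1HG0002210, similar to the oxophytodienoate reductase OPR2 (log2 1.73 ± 0.31, adjusted p = 0.0145, or 0.0773 without 1 h replicate 2), and the fall in a JAZ gene described below. Of 13 JAZ genes, repressors that jasmonate both destroys and induces, 0 rose and 1 fell (0 and 3 with the block), and their median was -1.35.

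**Figure D3:**
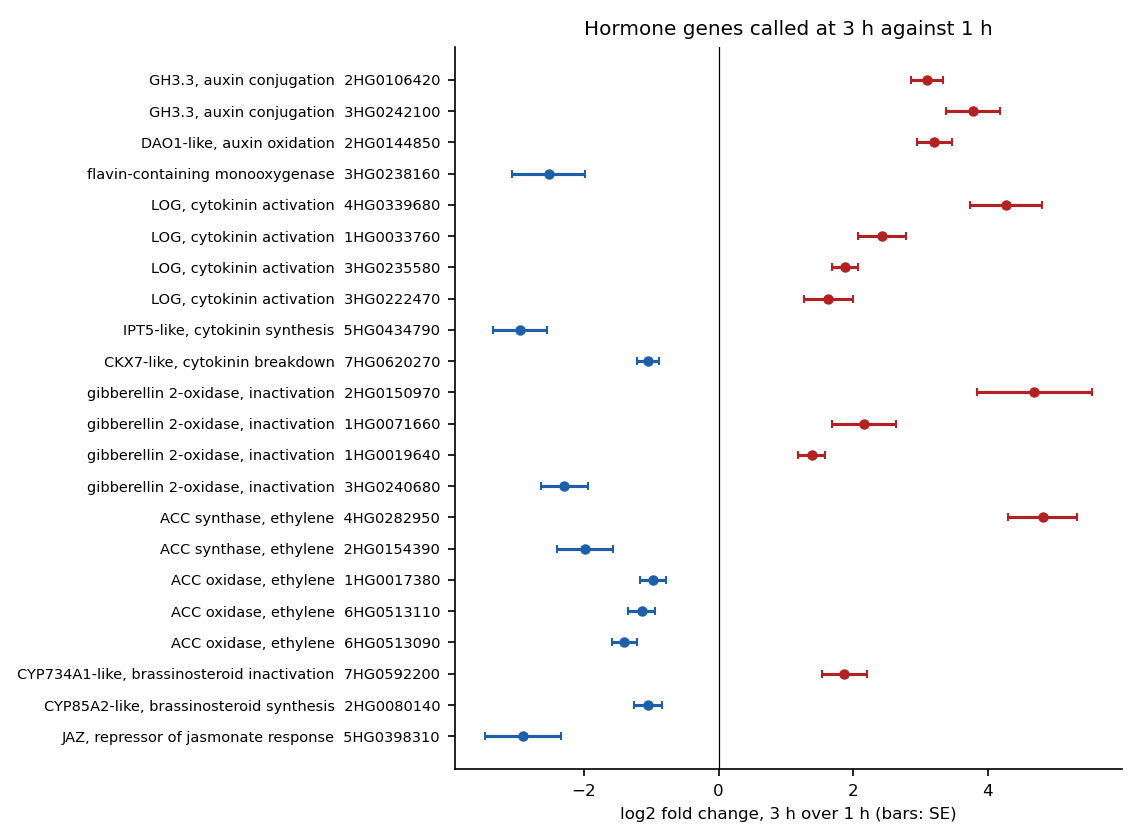
Log2 fold changes (3 h over 1 h) with their SE for 22 hormone genes called by edgeR, red where higher and blue where lower at 3 h. LOG genes lie to the right and the IPT5-like gene to the left, and both ACC synthases and gibberellin 2-oxidases lie on either side of 0.

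The lists of cell wall, conjugation and peroxidase genes gave calls that depended on single libraries. In the expansin and xyloglucan enzyme list of 77 members tested, 3 rose and 0 fell (9 and 3 with the block), with a median of -0.16, and the rises numbered 1 without 3 h replicate 2. Expansins loosen the wall, and 5HG0437890, similar to EXPA4, had 38.8, 54.99 and 54.8 CPM at 3 h, against 21.7, 19.4 and 21.8 CPM at 1 h (log2 1.24 ± 0.17, adjusted p = 0.00346). In the pectin list of 80 members tested, 3 rose and 2 fell (9 and 5 with the block), and the rises numbered 1 without 1 h replicate 1. The pectin methylesterase inhibitor gene 1HG0039150 had 151, 157 and 94.1 CPM at 3 h, against 29.6, 38.3 and 33.7 CPM at 1 h (log2 1.98 ± 0.21, adjusted p = 0.000979), and the polygalacturonase gene 1HG0055640, whose enzyme cuts pectin, fell (log2 -1.74 ± 0.24, adjusted p = 0.00329). In the glutathione S-transferase list of 93 members tested, 4 rose and 0 fell (14 and 0 with the block), with a median of 0.22. The rises numbered 0 without 1 h replicate 1. In the UDP-glycosyltransferase list of 228 members tested, 9 rose and 3 fell (16 and 11 with the block), and the rises numbered 2 without 1 h replicate 1. In the peroxidase list of 131 members tested, 4 rose and 3 fell (8 and 12 with the block), with falls in the majority when the block was used. Peroxidase genes similar to the same Arabidopsis gene, peroxidase 52 of lignin formation, moved apart, 7HG0596240 upward (log2 1.57 ± 0.17, adjusted p = 0.000979) and 7HG0611980 downward (log2 -2.52 ± 0.35, adjusted p = 0.00355). The peroxidase 17-like gene 5HG0404500 had 48.95, 66.4 and 58.3 CPM at 3 h, against 13.6, 16.03 and 18.1 CPM at 1 h (log2 1.86 ± 0.17, adjusted p = 0.000357).

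Several groups were picked from the called genes after their values were seen, so their counts are descriptions. Of 37 glutaredoxin genes, small redox proteins, 2 rose and 3 fell (2 and 5 with the block). Those that rose are both similar to Arabidopsis ROXY1-type glutaredoxin C8 genes. One, 2HG0126030, had 23.1, 28.6 and 31.5 CPM at 3 h, against 3.95, 1.94 and 3.49 CPM at 1 h (log2 3.15 ± 0.36, adjusted p = 0.00116). The other, 2HG0134960, had 34.97, 51.8 and 55.9 CPM at 3 h, against 8.56, 5.05 and 5.82 CPM at 1 h (log2 2.88 ± 0.30, adjusted p = 0.000979). The 3 that fell are 5HG0369340 (log2 -3.74 ± 0.71, adjusted p = 0.0193, or 0.094 without 3 h replicate 3), its neighbour 5HG0369360 (log2 -2.32 ± 0.31, adjusted p = 0.00297) and 3HG0262970 (log2 -2.21 ± 0.45, adjusted p = 0.0255, or 0.113 without 1 h replicate 1). Of 26 genes of sulfate uptake and assimilation 3 rose and 2 fell (4 and 3 with the block). The adenylylsulfate reductase gene 2HG0116980, for the enzyme that reduces activated sulfate, had 128, 367 and 359.6 CPM at 3 h, against 96.5, 70.2 and 41.9 CPM at 1 h (log2 2.04 ± 0.40, adjusted p = 0.0233, or 0.107 without 1 h replicate 2). A gene of the low-sulfur response, 6HG0459090, rose too (log2 2.16 ± 0.33, adjusted p = 0.00545). The sulfate transporter genes 7HG0538640, with 48.7, 90.5 and 60.6 CPM at 3 h, against 205, 216 and 213 CPM at 1 h (log2 -1.67 ± 0.20, adjusted p = 0.00178), and 3HG0236740 (log2 -2.63 ± 0.55, adjusted p = 0.0308, or 0.116 without 1 h replicate 1) fell. Signal peptide genes moved as well: a gene for the peptide IDA, 2HG0138000 (log2 2.27 ± 0.31, adjusted p = 0.0034), and one described as CLE-related, 6HG0524660 (log2 2.11 ± 0.27, adjusted p = 0.00203), rose, and a phytosulfokine gene, 5HG0380400, fell (log2 -1.33 ± 0.19, adjusted p = 0.00422).

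From the cyclin and cyclin-dependent kinase list, 1 cyclin gene and a pair of kinase inhibitor genes were called at 3 h. In the list of cyclins and cyclin-dependent kinases of 81 members tested, 1 rose and 2 fell (1 and 5 with the block), with a median of -0.073. That is 3.7% called, against 2.08% of all genes tested. A cyclin B1 gene, 1HG0045170, had 16.9, 8.72 and 7.26 CPM at 3 h, against 4, 3.11 and 3.45 CPM at 1 h (log2 1.64 ± 0.36, adjusted p = 0.0423, or 0.173 without 1 h replicate 2). The falls were those of cyclin-dependent kinase inhibitor genes, 4HG0340150, with 24.9, 24.7 and 26.3 CPM at 3 h, against 48.8, 48.5 and 40.1 CPM at 1 h (log2 -0.86 ± 0.14, adjusted p = 0.00692), and 6HG0460230 (log2 -1.35 ± 0.28, adjusted p = 0.0303, or 0.125 without 1 h replicate 1). Of 166 core histone genes 0 were called in either direction (1 rose with the block). In the ribosomal protein list of 392 members tested, 2 rose and 0 fell (25 and 0 with the block), with a median of 0.21. The share called without the block was 0.51%, below that of all genes.

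Late rises were defined as genes higher at 3 h whose mean at 1 h was within 1.5 times of that at 0 h, and 202 of the 297 were such. In 199 of them all 3 libraries of 3 h lay above all 9 others, and the share over all genes tested is not given here. Much of this follows from how the genes were chosen. In all 297 the 3 h libraries lay above those of 1 h, and late rises had similar means at 1 h and 0 h. Of the 202, 169 also passed at 3 h over 0 h, a comparison that shares the 3 h libraries and called 617 genes (2.48%). A further 75 had a 1 h mean at least 1.5 times that of 0 h. In 18 the 1 h mean was below that of 0 h, by 1.5 times or more, and 2 were at 0 at 0 h. Late rises include the ARF19-like gene 6HG0463500 and the IAA3-like and IAA13-like genes 7HG0544360 and 6HG0522850. The GH3, DAO1-like and WOX11-related genes belong to the 75. Of the 24 genes that passed 1 h over 0 h (0.0963% of genes tested), 15 rose again by 3 h, 4 fell and 5 were not called between 1 h and 3 h. Since the 1 h libraries enter both comparisons, these counts are not independent of each other. Beside genes already named, the 15 include 2 F-box genes, 3HG0246100 (log2 1.12 ± 0.17, adjusted p = 0.00557) and 4HG0316440 (log2 1.17 ± 0.14, adjusted p = 0.0016), and a BTB/TAZ gene similar to Arabidopsis BT2, 3HG0257260 (log2 1.16 ± 0.23, adjusted p = 0.0235, or 0.127 without 1 h replicate 2). The DnaJ domain gene 7HG0609890 (log2 2.04 ± 0.26, adjusted p = 0.00203) and 4HG0285770, whose listed Arabidopsis homolog is uncharacterized (log2 2.42 ± 0.26, adjusted p = 0.0011), were steeper. The 5 not called include the IAA26-like gene 3HG0238900, with 41.1, 47.04 and 53.7 CPM at 3 h, against 46.4, 41.9 and 46.6 CPM at 1 h (log2 0.073 ± 0.12, adjusted p = 0.83), and the homeobox-leucine zipper gene 7HG0537960 (log2 0.13 ± 0.27, adjusted p = 0.875).

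Genes switched off again were defined as those lower at 3 h whose 1 h mean was at least 2 times the 0 h mean, and 22 of the 221 were such. All 22 also passed with the block, as did all 221 falls. The 3 h mean was under the 0 h mean in 16 of them, within 1.5 times of it in 10, further below it in 11 and above that range in 1. In 16 the 30 min mean was already at least 2 times that at 0 h, and in 8 it was above the 1 h mean. By test, 4 of the 22 had passed 1 h over 0 h and 1 passed 3 h over 0 h, so for the other 18 the first rise is a ratio of means and not a call.

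The WRKY40-like gene 5HG0400740 (chromosome 5H, 452770168 to 452771471) showed this course in both tests. WRKY40 is a transcription factor induced early by wounding and pathogens in Arabidopsis. It had 1.75, 1.5 and 1.86 CPM at 3 h, against 8.28, 8.27 and 10.1 CPM at 1 h, and its means were 2.51, 5.64, 8.89 and 1.7 CPM at 0 h, 30 min, 1 h and 3 h. The fall (log2 -2.38 ± 0.18, adjusted p = 0.000118) and the rise before it (1 h over 0 h, log2 1.82 ± 0.17, adjusted p = 0.00378) passed, and the fall passed in 12 of 12 fits with 1 library left out. Its neighbour 5HG0400750, also WRKY40-like, had 15.1, 7.71 and 8.99 CPM at 3 h, against 49.9, 37.4 and 34.2 CPM at 1 h (log2 -1.94 ± 0.29, adjusted p = 0.0044). The dioxygenase gene 4HG0343710, similar to DMR6, an enzyme that breaks down salicylic acid, had 12.3, 9.73 and 17.2 CPM at 3 h, against 45.4, 63.02 and 42.96 CPM at 1 h (log2 -1.95 ± 0.25, adjusted p = 0.00215). Its means were 12.4, 30.4, 50.4 and 13.1 CPM at 0 h, 30 min, 1 h and 3 h, a return to the starting level. The ACC oxidase gene 1HG0017380 had 28.8, 25.1 and 30.8 CPM at 3 h, against 64.8, 56.03 and 45.9 CPM at 1 h, still somewhat above its 0 h mean of 20.4 CPM. The protein kinase gene 5HG0445920, similar to a cysteine-rich receptor kinase, was the last of the 4 that had passed at 1 h (log2 -0.81 ± 0.17, adjusted p = 0.0292, or 0.154 without 1 h replicate 2).

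**Figure D4:**
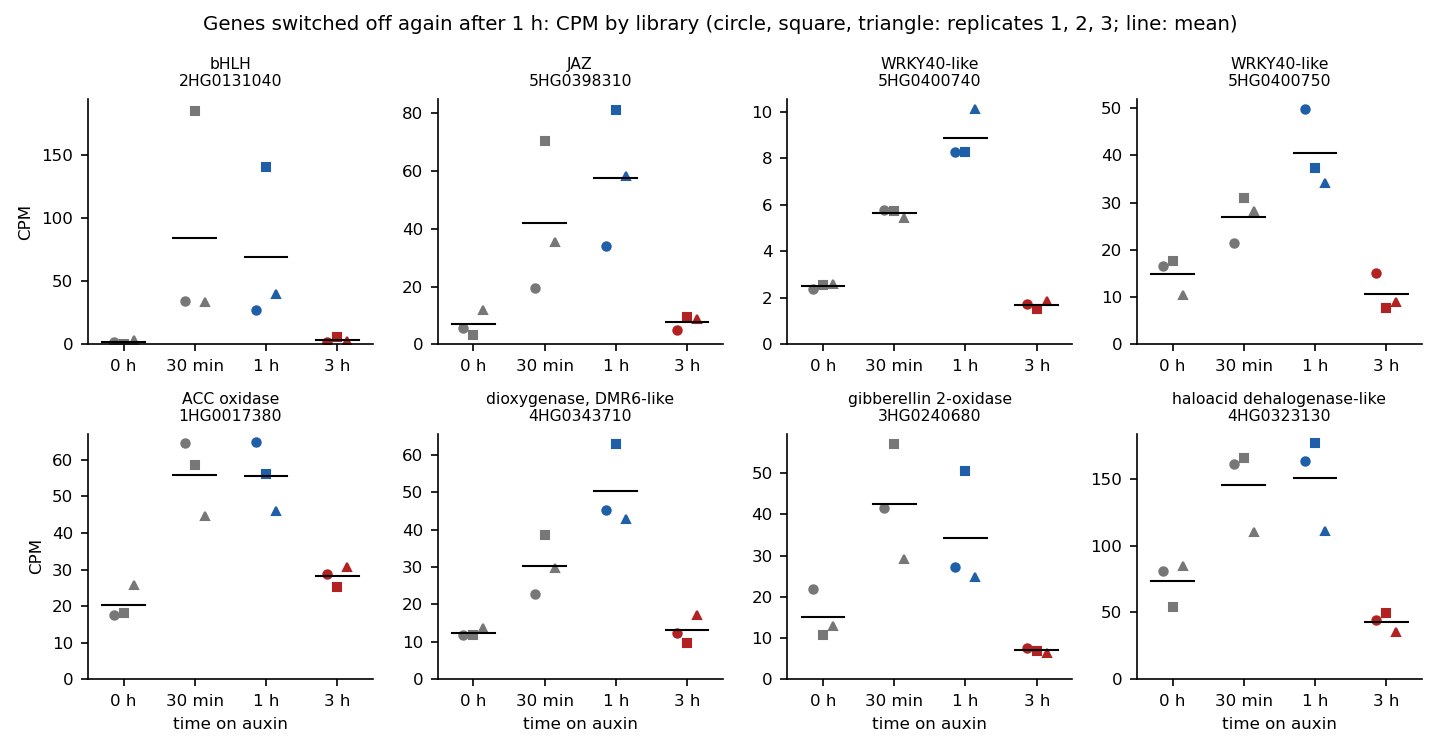
CPM (linear axis) in each library of the 4 times for 8 of the 22 genes switched off again, with 3 h in red, 1 h in blue, 0 h and 30 min in grey and a line at each mean. All 3 h libraries lie below all 1 h libraries in each panel, as in every called fall. The bHLH, JAZ and gibberellin 2-oxidase genes vary most between the replicates of 1 h.

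The largest falls of this kind had larger SE. The bHLH gene 2HG0131040 (chromosome 2H, 410065989 to 410067899) had 1.61, 5.76 and 2.27 CPM at 3 h, against 26.98, 140.4 and 39.8 CPM at 1 h. Replicate 2 of 1 h was far above the other two, and the fitted fall of 21.4 times (log2 -4.42 ± 0.97, adjusted p = 0.0383, or 0.149 without 1 h replicate 2) was lost in 7 of the 12 fits. The JAZ gene 5HG0398310 (chromosome 5H, 438759576 to 438760855) had 4.79, 9.57 and 8.75 CPM at 3 h, against 34.1, 81.1 and 58.1 CPM at 1 h (log2 -2.90 ± 0.56, adjusted p = 0.0217, or 0.0925 without 1 h replicate 2), and its means were 6.92, 41.9, 57.8 and 7.7 CPM at 0 h, 30 min, 1 h and 3 h. The MYB gene 7HG0549810 had 0.138, 1.05 and 0.248 CPM at 3 h, against 3.91, 11.5 and 11.8 CPM at 1 h (log2 -4.21 ± 0.79, adjusted p = 0.0182, or 0.0888 without 3 h replicate 3). A salicylate methyltransferase gene, UnG0625460, fell to about the level of 3 counts, with 0.138, 0.122 and 0.0413 CPM at 3 h, against 0.837, 3.4 and 1.39 CPM at 1 h (log2 -4.18 ± 0.69, adjusted p = 0.00897, or 0.0505 without 3 h replicate 3). Glycosyltransferase genes supplied 3 more, 7HG0533930 (log2 -3.32 ± 0.62, adjusted p = 0.0179, or 0.0789 without 1 h replicate 2), 6HG0478660 (log2 -3.04 ± 0.50, adjusted p = 0.00878) and 2HG0151400 (log2 -2.86 ± 0.63, adjusted p = 0.0388, or 0.156 without 1 h replicate 2). With them went a bHLH gene, 3HG0181460, at 7.84, 32.8, 18.8 and 4.92 CPM at 0 h, 30 min, 1 h and 3 h (log2 -1.94 ± 0.38, adjusted p = 0.0233, or 0.106 without 1 h replicate 2), and a glucan endo-1,3-beta-glucosidase gene, 3HG0236080 (log2 -2.47 ± 0.48, adjusted p = 0.0227, or 0.0967 without 3 h replicate 2).

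The remaining genes of the 22 were of several kinds. The wall-associated receptor kinase gene 2HG0085340 had 1.2, 1.62 and 1.65 CPM at 3 h, against 5.02, 7.21 and 8.43 CPM at 1 h (log2 -2.20 ± 0.25, adjusted p = 0.00116). The haloacid dehalogenase-like gene 4HG0323130 had 44.2, 49.5 and 35.1 CPM at 3 h, against 163, 177 and 111 CPM at 1 h (log2 -1.81 ± 0.24, adjusted p = 0.00297). Its means were 73.5, 146, 151 and 42.9 CPM at 0 h, 30 min, 1 h and 3 h, so it ended below its start. The others are a dioxygenase gene, 4HG0320280 (log2 -2.05 ± 0.41, adjusted p = 0.0244, or 0.1 without 1 h replicate 2), a lectin receptor kinase gene, 2HG0168960 (log2 -1.85 ± 0.34, adjusted p = 0.015, or 0.0715 without 1 h replicate 2), a LURP-one-like gene, 3HG0242970 (log2 -1.55 ± 0.33, adjusted p = 0.0352, or 0.138 without 3 h replicate 3), and a gene described as an anaphase-promoting complex subunit, 2HG0101500 (log2 -2.04 ± 0.46, adjusted p = 0.0461, or 0.159 without 3 h replicate 3). The gibberellin 2-oxidase and ACC synthase genes given above, 3HG0240680 and 2HG0154390, complete them.

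Most falls were not of this kind: 148 of the 221 had a 1 h mean within 1.5 times of that at 0 h, 45 had one between 1.5 and 2 times it, and 6 were already lower at 1 h. Homeobox genes of the KNOX and BEL families include regulators of meristems and of organ development, and of 25 members tested, 0 rose and 3 fell (1 and 4 with the block), with a median of -0.20, and the 3 fell in each fit that left out 1 library. The BEL-type gene 7HG0595310, similar to ATH1, had 5.98, 5.35 and 2.27 CPM at 3 h, against 23.5, 25.8 and 20.6 CPM at 1 h (log2 -2.36 ± 0.30, adjusted p = 0.00221). The KNOX gene 4HG0343610, similar to KNAT7, had 3.17, 5.23 and 4.58 CPM at 3 h, against 14.00, 21.8 and 19.97 CPM at 1 h (log2 -2.10 ± 0.33, adjusted p = 0.00721). The third was the BEL1-like gene 1HG0059780 (log2 -0.92 ± 0.13, adjusted p = 0.00355). Among other largest falls, the short-chain dehydrogenase gene 7HG0534500 had 1.89, 1.66 and 0.66 CPM at 3 h, against 10.7, 17.1 and 22.5 CPM at 1 h (log2 -3.58 ± 0.41, adjusted p = 0.00124). The trehalose phosphate phosphatase gene 5HG0394730, whose enzyme removes a sugar signal, had 11.96, 17.2 and 8.29 CPM at 3 h, against 99.5, 91.3 and 48.9 CPM at 1 h (log2 -2.67 ± 0.39, adjusted p = 0.00418).

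Aquaporin, nitrate transporter and chlorophyll-binding genes were among the falls. In the aquaporin list, water channels, of 29 members tested, 0 rose and 2 fell (0 and 4 with the block), with the lowest median of the lists, -0.57. They were 6HG0494530 (log2 -1.21 ± 0.21, adjusted p = 0.0129, or 0.0663 without 1 h replicate 2) and 2HG0086230 (log2 -0.72 ± 0.14, adjusted p = 0.021, or 0.0965 without 1 h replicate 1). In the nitrate and sugar transporter list of 96 members tested, 2 rose and 4 fell (2 and 8 with the block), with a median of -0.29. The NRT1/PTR family gene 5HG0438580 had 3.5, 8.19 and 6.48 CPM at 3 h, against 35.2, 46.2 and 48.5 CPM at 1 h (log2 -2.83 ± 0.29, adjusted p = 0.000979), and a bidirectional sugar transporter gene, 6HG0521400, fell (log2 -1.48 ± 0.20, adjusted p = 0.00317). Of 32 chlorophyll a-b binding genes 0 rose and 4 fell (0 and 12 with the block), with a median of -0.54. The gene 6HG0460220 had means of 37.9, 19.9, 19.2 and 6 CPM at 0 h, 30 min, 1 h and 3 h (log2 -1.67 ± 0.33, adjusted p = 0.023, or 0.099 without 3 h replicate 3), and 1HG0073480 had means of 107, 63.1, 62.1 and 27.05 CPM at 0 h, 30 min, 1 h and 3 h (log2 -1.20 ± 0.26, adjusted p = 0.0369, or 0.15 without 1 h replicate 1). Of 54 photosystem genes 0 were called (0 and 6 with the block), with a median of -0.066. The summed green-tissue level given above, lower at 3 h, covers these same chlorophyll a-b binding and photosystem genes, so it is not a separate result. The clock gene LHY was among the falls, and so were relatives that are counted in the MYB list. LHY, a gene that peaks at dawn, 7HG0579870, had 90.9, 58.6 and 83.1 CPM at 3 h, against 156, 118 and 169 CPM at 1 h (log2 -0.93 ± 0.18, adjusted p = 0.0187, or 0.0781 without 1 h replicate 1), and its means were 201, 181, 148 and 77.5 CPM at 0 h, 30 min, 1 h and 3 h. The relatives 7HG0622940, similar to REVEILLE 2 (log2 -1.84 ± 0.27, adjusted p = 0.0044), and 7HG0528770, similar to REVEILLE 8 (log2 -1.37 ± 0.27, adjusted p = 0.0217, or 0.0842 without 1 h replicate 1), fell as well. The clock list, which does not hold these relatives, did not fall as a whole: of 8 members tested, 0 rose and 1 fell (1 and 1 with the block). Of the 8, 5 had a log2 fold change above 0, and the median was 0.23.

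**Figure D5:**
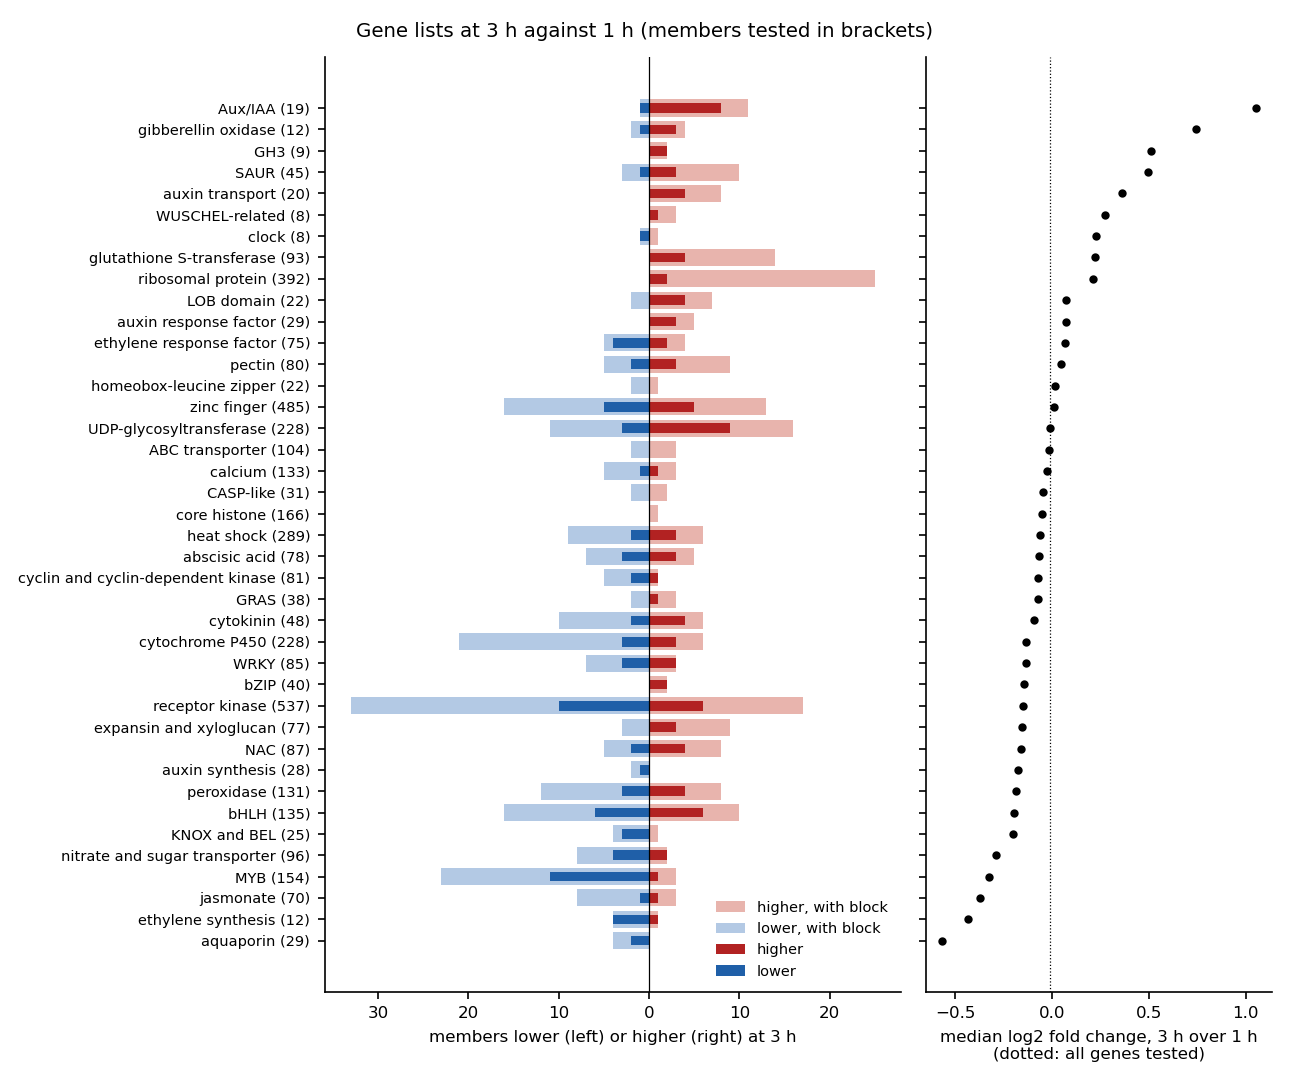
Left, members of each gene list that were lower (to the left) or higher (to the right) at 3 h, in dark colours without and in pale colours with the replicate number as a block, for the lists with at least 1 call in either fit. Right, the median log2 fold change (3 h over 1 h) of all tested members, from 1.05 for Aux/IAA at the top to -0.57 for aquaporins at the bottom, with a dotted line at the median of all genes.

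Several lists gave no call without the block. These were the homeobox-leucine zipper genes (22 tested, 1 and 2 with the block), the ABC transporters (104, 3 and 2 with the block), the CASP-like membrane proteins (31, 2 and 2 with the block), the core histones and the AP2-like genes. In several large lists calls stood on both sides, with shares near the 2.08% of all genes tested. In the receptor kinase list of 537 members tested, 6 rose and 10 fell (17 and 33 with the block), and in the zinc finger list of 485 members tested, 5 rose and 5 fell (13 and 16 with the block). In the heat shock and chaperone list of 289 members tested, 3 rose and 2 fell (6 and 9 with the block), and in the calcium-binding list of 133 members tested, 1 rose and 1 fell (3 and 5 with the block). Leaving out 1 library moved many list counts by over 1.5 times. The falls among receptor kinases numbered 3 without 3 h replicate 2, those among bHLH genes 2 without 3 h replicate 2 and those of ethylene synthesis 1 without 3 h replicate 2. The rises among zinc finger genes numbered 0 without 3 h replicate 2, those among NAC genes 1 without 1 h replicate 1, those of gibberellin oxidases 1 without 3 h replicate 3 and those of the abscisic acid list 1 without 3 h replicate 2. The aquaporin falls numbered 0 without 3 h replicate 3 and those of the green-tissue list 0 without 3 h replicate 1. Of the marker lists, the 24 xylem, 15 grain and 5 root hair genes had 0 calls, and 1 of 4 phloem genes rose, 3HG0201600 (log2 1.30 ± 0.26, adjusted p = 0.0226, or 0.104 without 1 h replicate 2).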

How the data were processed

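The authors deposited raw, unnormalized counts of reads for 63658 genes in each library. HISAT2 2.0.5 and Subread 1.5.2 are named in the submitters' processing notes. Not given in the sources used here: the genome build, the strand setting and the treatment of reads that match several genes. Positions and homologs are those of the deposited table. Its log2 fold changes and adjusted p-values were made by the authors with a tool that is not stated and were used for counts of shared calls alone. Its row of total reads is another quantity the authors deposited, used for the assigned share.

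Counts were tested with edgeR 4.0.16 (limma 3.58.1, R 4.3.3), with DESeq2 1.42.0 as an alternative. filterByExpr (minimum count 10, total 15) kept 24920 genes, with at least 99.9% of assigned reads, scaled by TMM in 1 model of 4 times with 8 residual degrees of freedom. The quasi-likelihood test was adjusted by Benjamini-Hochberg over all genes and called at 0.05. The procedure was run on simulated counts that held no effect of replicate number, so that run does not cover the pairing of libraries described next. Its outcome is not reported here. Replicate numbers pair the libraries: residuals of 3 h and 1 h libraries of the same number correlated at 0.139 to 0.398, and those of other numbers at -0.319 to 0.104. The value with the block is therefore printed beside most list counts. The p-values measure the spread between the pools of crowns of this 1 series. The 41 gene lists and 5 marker lists, made from words in gene descriptions, and all rules were chosen with earlier results of these data known. Named genes are the 12 largest rises and falls (at least 1 CPM, no overlap, with a description), up to 3 genes of each list by p, crown-root homologs, genes that passed 1 h over 0 h and genes switched off again. Those outside this rule were chosen after their values were seen: the PRE5-like, canalization, glutaredoxin, sulfur, peptide, IAA3-like and IAA18-like, CYP85A2-like, REVEILLE 8-like and trehalose genes, the second kinase regulator, and the last LOG, LOB, gibberellin and SAUR genes, the response regulator and the CKX7-like gene. Alternatives were scaling, filters, the 6 libraries alone, the block, the number 1 libraries left out, and each library left out. Some items are not reported here. Figures used matplotlib 3.10.9.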

Additional observations from a re-analysis of the deposited data

How the results depend on the processing

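With the replicate number as a block the counts were 819 higher and 873 lower, against 297 and 221, and with DESeq2 they were 695 and 636. With the 6 libraries of 3 h and 1 h alone 239 genes rose and 137 fell (384 and 310 with the replicate block), and with the number 1 libraries left out at all 4 times 237 and 141. Leaving out 1 library gave 135 to 313 higher and 85 to 219 lower genes. RLE scaling gave 304 and 209, upper-quartile scaling 297 and 212, no filter on low counts 323 and 236 of 37330 tested, and a mean of at least 1 CPM 285 and 225. No called gene turned round under these alternatives. Of the 160 named genes that were called, 160 kept the call with the block, as all called genes did. With DESeq2 159 kept it, and 1HG0033780 was given no adjusted p. Those that lost it were most numerous without replicate 2 of 1 h. Genes that were not called turned round on leaving out libraries. Over the 12 fits with 1 left out, 3HG0258890 ran from -0.0101 to 0.31 (-0.0157 without the number 1 libraries), 1HG0073280 from -0.28 to 1.16, 3HG0236690 from -0.33 to 0.12, 3HG0238900 from -0.028 to 0.16 and 7HG0537960 from -0.037 to 0.35. The cause was not tested. Of the called genes 244 of 297 rises and 144 of 221 falls were at least 1 on the log2 scale.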

Other observations

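A gene described as a katanin subunit, 1HG0033780 (chromosome 1H, 282094397 to 282094834), had 13, 14 and 14 counts at 3 h, against 0, 0 and 0 counts at 1 h, and 0 in the 6 libraries of 0 h and 30 min. It passed edgeR's quasi-likelihood test at 3 h over 1 h (adjusted p = 0.0372, or 0.131 without 3 h replicate 2), but in only 6 of the 12 fits with 1 library left out. A count of 0 allows up to 3 counts in a library. Some large differences between counts were not called. The lectin kinase gene UnG0633560 had 17, 4074 and 1352 counts at 3 h, against 2, 1 and 55 counts at 1 h. The gene UnG0631180, described as a subunit of cytochrome c oxidase, had 547, 0 and 10 counts at 3 h, against 0, 0 and 0 counts at 1 h.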
